A study of Mus musculus with 6 samples.

Results

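YAP1 and WWTR1 encode YAP and TAZ, the transcriptional cofactors that the Hippo pathway controls. Described with them were 8 further genes: TEAD1, the Hippo regulators LATS2, AMOTL2 and AJUBA, and the targets ANKRD1, AXL, CRIM1 and FJX1. The members were taken by gene symbol from a table of 20323 genes, where each of the 10 symbols had 1 row. All 10 passed the filter on low counts that left 11970 genes for testing. The 6 RNA-seq libraries came from RFB, which the labels call a kidney fibroblast line. By the treatment labels, cells of 3 libraries had received TGF-β, and cells of the other 3 had received TGF-β with CXCL10. Titles of the CXCL10 libraries carry a volume of 5 µl with no concentration, and titles of the other 3 read NC. What NC stands for is not stated in those titles, so the TGF-β treatment of these 3 rests on the treatment label. By that label every library came from TGF-β-treated cells, and no library without TGF-β was analysed here. The series text speaks of a SUV39H1 knockdown and the sample labels name none, so the groups follow the labels. The labels call the organism mouse, while all 20323 rows carry human Ensembl identifiers, so each level is one on a human gene model. The labels do not say whether replicates were separate cultures, and p-values then measure only the spread between these libraries, which may be technical.

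The Hippo pathway is a kinase cascade in which MST kinases activate the LATS kinases, and LATS phosphorylates YAP and TAZ and keeps them out of the nucleus. Unphosphorylated YAP and TAZ enter the nucleus and bind the TEAD factors, which carry them to DNA. Several of their targets restrain them in turn: LATS2 is the kinase itself, and AMOTL2 binds YAP and activates LATS, so both close a negative feedback loop. In fibroblasts, YAP and TAZ respond to stiff matrix and actin tension and take part in the myofibroblast state that TGF-β drives. Much of this control acts on protein phosphorylation and location, which RNA levels do not show.

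Libraries held 12838106 to 15587409 counts. Replicate 1 stood apart in both groups. Its counts differed from those of replicates 2 and 3 with a chi-square per degree of freedom of 17.4 and 16.2 in the TGF-β group and 8.81 and 8.44 in the CXCL10 group, while replicates 2 and 3 differed by 3.07 and 2.79. All 10 fibroblast markers were tested. In the fit that pairs same-numbered libraries 2 rose and 3 fell, beside 9.71% and 8.04% of all genes. THY1 (log2 change 0.43) and VIM (0.38) rose, and COL1A1 (-0.14), DCN (-0.25) and LUM (-0.32) fell. Their list had a summed level of 50611 to 60439 CPM (counts relative to the library's total, scaled by the TMM method). COL1A1 alone held 29940 to 38460 CPM. Epithelial keratins were also high, and the 9 epithelial markers summed to 3137 to 3170 CPM in TGF-β replicates 2 and 3, 3662 CPM in TGF-β replicate 1 and 3395 to 3680 CPM with CXCL10. Of the 6 epithelial markers tested 2 rose (KRT18, 0.23, and KRT19, 0.28) and 1 fell (CDH1, -1.89, on 3 to 49 counts per library) in that fit. EPCAM had at most 8 counts in a library and LRP2 had 0, while PAX8 had 84 to 110 and AQP1 136 to 204. Of 5 immune markers 2 were tested and 0 called: PTPRC had at most 7 counts and CD3E 0, while CD68 had 501 to 591. Of 5 endothelial markers 2 were tested and 0 called: CDH5 had at most 3 counts, while VWF had 28 to 38 and TEK 614 to 766. The immune list summed to 37.7 to 43.7 CPM with TGF-β and 39.5 to 45.6 CPM with CXCL10, and the endothelial list to 50.4 to 51.4 and 47.7 to 51.6 CPM. The part that cell makeup has in the results was not tested, and in bulk RNA fewer cells of a type and less RNA per cell cannot be told apart.

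With CXCL10, FJX1 was 2.05 times as high, AJUBA was 0.711 times as high and WWTR1 was 1.20 times as high as with TGF-β alone, by group means of scaled CPM. The ratio of means was 0.982 for YAP1, 0.979 for CRIM1 and 1.04 for AXL. Without pairing, edgeR called 0 of the 10 genes and 0% of all 11970 genes at an adjusted p under 0.05, while FJX1 and AJUBA, 2 of the 10, had an unadjusted p under 0.05, as did 20.5% of all genes. When same-numbered libraries were paired, FJX1 and WWTR1 rose and AJUBA fell, and 7 genes were not called. That is 2 of 10 genes higher beside 9.71% of all genes, and 1 of 10 lower beside 8.04%. A list of 10 cannot show whether these shares differ from the background. Scaling by library totals turned the paired calls over all genes from 1162 higher and 962 lower to 877 and 1359, and left the same numbers of members called in each direction. The median paired log2 change of the 10 genes was 0.05, beside -0.01 over all genes tested.

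**Figure D1:**
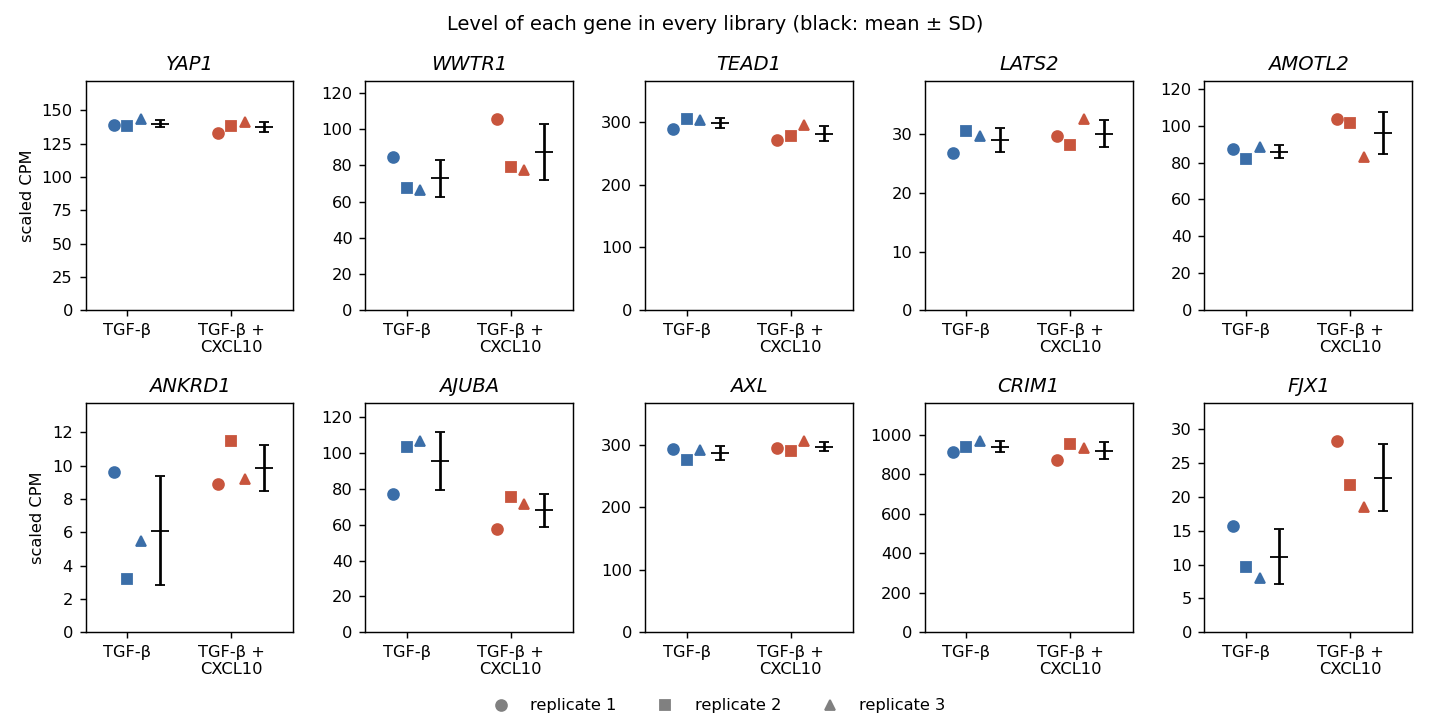
Scaled CPM (linear axes from 0) of the 10 genes in each library of the TGF-β group (blue) and the TGF-β + CXCL10 group (red), with the mean and SD of 3 libraries in black. The groups part completely for FJX1 (8.04 to 15.7 against 18.5 to 28.2 CPM) and AJUBA (77.1 to 106 against 57.4 to 75.2 CPM), while those of the other 8 genes overlap.

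Among the cofactors, YAP1 (ENSG00000137693) was steady. It stood at 139, 138 and 143 CPM in TGF-β replicates 1 to 3 and at 133, 138 and 141 CPM with CXCL10. The groups overlapped, with CXCL10 replicate 1 the lowest library and TGF-β replicate 3 the highest. The log2 change was -0.03 (SE 0.06, edgeR adjusted p = 0.833), with a 95% interval of -0.16 to 0.11.

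WWTR1 (ENSG00000018408), which encodes TAZ, varied more. It stood at 84.7, 67.5 and 66.4 CPM with TGF-β and at 105, 79.2 and 77.6 CPM with CXCL10. Replicate 1 was the highest library of either group, and TGF-β replicate 1 lay above CXCL10 replicates 2 and 3. In each of the 3 pairs the CXCL10 library was higher, by 0.32, 0.23 and 0.23 (log2). Unpaired, the edgeR change was 0.26 (SE 0.13, adjusted p = 0.296). Paired it was 0.26 (SE 0.06, adjusted p = 0.00819). Neither DESeq2 without pairing (adjusted p = 0.268) nor the authors' deposited table (adjusted p = 0.390) had WWTR1 under 0.05. Without CXCL10 replicate 1 the unpaired change was 0.11, and without TGF-β replicate 1 it was 0.39 (adjusted p = 0.0455).

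Levels of different genes can be compared only per length, in the deposited FPKM. On that scale WWTR1 lay below YAP1 in every library. The ratio of WWTR1 to YAP1 was 0.492, 0.436 and 0.385 with TGF-β and 0.761, 0.513 and 0.487 with CXCL10. One library, CXCL10 replicate 1, was far above the rest, and the groups overlapped between TGF-β replicate 1 and CXCL10 replicate 3. By raw counts the ratio was 0.792 in CXCL10 replicate 1 and next highest, at 0.609, in TGF-β replicate 1, a smaller lead than by FPKM.

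TEAD1 (ENSG00000187079), the DNA-binding partner of both cofactors, stood at 289, 304 and 302 CPM with TGF-β and at 272, 277 and 295 CPM with CXCL10. CXCL10 replicate 3 lay inside the TGF-β range, and the other CXCL10 libraries lay below it. The CXCL10 library was lower in all 3 pairs, by a change of -0.09 (SE 0.06, adjusted p = 0.440 unpaired and 0.239 paired; unpaired 95% interval -0.22 to 0.05). TEAD1 was the most abundant TEAD transcript, with 44.4% ± 3.89 (SD, n = 3) of the summed TEAD FPKM with TGF-β and 42.8% ± 2.47 with CXCL10.

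The other TEAD genes did not move together. TEAD3 fell in the paired fit (-0.25, SE 0.06, adjusted p = 0.0122), from 81.1 ± 7.70 to 68.1 ± 4.24 CPM, while TEAD4 rose (0.46, SE 0.12, adjusted p = 0.0160), from 20.1 ± 5.11 to 27.3 ± 2.93 CPM. TEAD2 was not called at -0.10. On the FPKM scale the share of TEAD3 was 29.6% ± 1.28 and 26.2% ± 1.75 of the TEAD sum, and that of TEAD4 14.7% ± 3.76 and 20.0% ± 2.09. VGLL3, a TEAD cofactor of the vestigial-like family, rose from 182 ± 23.6 to 234 ± 29.0 CPM in the paired fit (0.36, SE 0.05, adjusted p = 0.000360). VGLL4, which competes with YAP for TEAD, was not called at -0.29. Of the 8 cofactor, TEAD and VGLL genes, pairing gave 3 that rose and 1 that fell, beside 9.71% and 8.04% of all genes, and 0 passed unpaired, as over all genes. For TEAD4 the TGF-β replicate 1 library held 25.8 CPM, against 15.9 and 18.6 CPM in the others of its group and 24.1 to 29.8 CPM with CXCL10. The same library held 72.6 CPM of TEAD3, only just above the 72.4 CPM of CXCL10 replicate 2. Its 208 CPM of VGLL3 lay just below the 213 CPM of CXCL10 replicate 3.

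**Figure D2:**
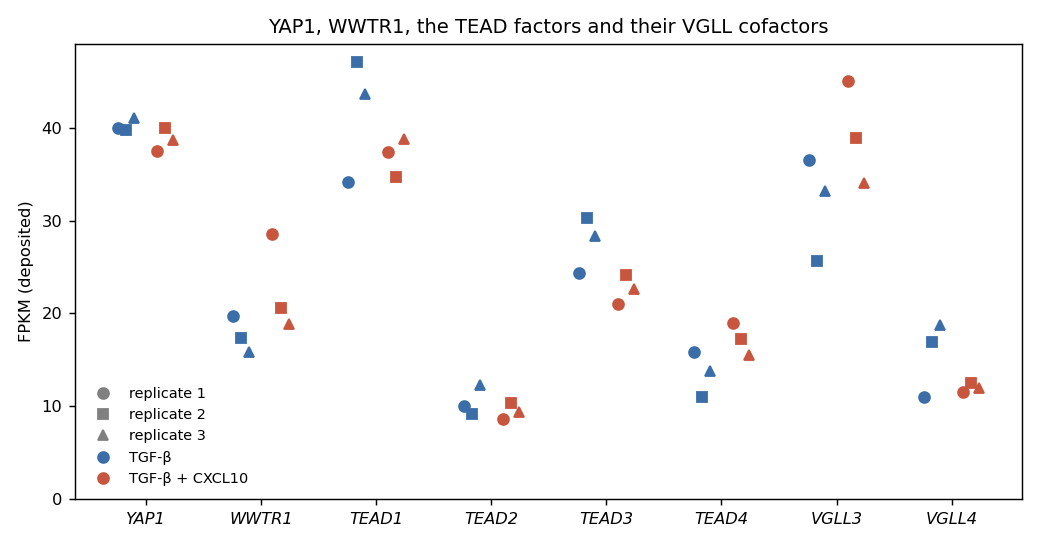
Deposited FPKM (linear axis from 0) of YAP1, WWTR1, the 4 TEAD genes, VGLL3 and VGLL4 in each library, blue for TGF-β and red for TGF-β + CXCL10, with the marker shape giving the replicate. YAP1 lies between 37.5 and 41.0 FPKM in all libraries and WWTR1 between 15.8 and 28.5. TEAD4 lies mostly higher in the CXCL10 libraries. TEAD3 lies lower in them, but only just where TGF-β replicate 1 (24.3 FPKM) meets CXCL10 replicate 2 (24.1 FPKM).

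Of the Hippo regulators LATS2, AMOTL2 and AJUBA, only AJUBA was called in the paired fit. AJUBA (ENSG00000129474) encodes a LIM-domain adaptor that binds LATS kinases and holds them inactive at cell junctions under tension. It stood at 77.1, 103 and 106 CPM with TGF-β and at 57.4, 75.2 and 71.3 CPM with CXCL10. All CXCL10 libraries lay below all TGF-β libraries, as they did for 11.2% of all tested genes, but TGF-β replicate 1 was only just above CXCL10 replicate 2. The change was -0.49 (SE 0.14, 95% interval -0.80 to -0.19, adjusted p = 0.161) unpaired and -0.49 (SE 0.06, adjusted p = 0.000121) paired. Differences within the 3 pairs were -0.42, -0.46 and -0.58. DESeq2 called AJUBA without pairing too (adjusted p = 0.0250), where it called 1.36% of all genes lower. In the authors' deposited table AJUBA had a log2 ratio of -0.52 and an adjusted p of 0.0405, and 0.618% of the 15691 genes with a count were lower at that threshold.

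LATS2 (ENSG00000150457), the kinase that phosphorylates YAP and TAZ, stood at 26.8, 30.6 and 29.8 CPM with TGF-β and at 29.7, 28.2 and 32.6 CPM with CXCL10. The groups overlapped, with TGF-β replicate 1 the lowest library and CXCL10 replicate 3 the highest. Its change was 0.05 (SE 0.10, adjusted p = 0.792, 95% interval -0.17 to 0.27), and the sign turned when TGF-β replicate 1 was left out (-0.00052). Its paralog LATS1 was not called either (-0.09 in both fits).

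AMOTL2 (ENSG00000114019), the angiomotin that binds YAP, stood at 87.1, 82.0 and 88.5 CPM with TGF-β and at 103, 102 and 83.0 CPM with CXCL10. CXCL10 replicates 1 and 2 lay above every TGF-β library, and CXCL10 replicate 3 lay among them. The change was 0.16 (SE 0.09, adjusted p = 0.340 unpaired and 0.162 paired). The paired value was 0.29 (adjusted p = 0.0356) without both libraries of replicate 3 and 0.08 without both of replicate 2.

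Of 17 tested genes on a list of Hippo kinases and their regulators, LATS2 among them, 1 rose and 0 fell in the paired fit, beside 9.71% and 8.04% of all genes, with a median of 0.01. The gene that rose was NF2, which encodes the membrane-linked activator merlin, from 39.4 ± 6.86 to 52.2 ± 4.07 CPM (0.41, SE 0.08, adjusted p = 0.00259). TGF-β replicate 1 held 47.2 CPM of NF2, against 34.2 and 36.9 CPM in the others of its group. The scaffold SAV1 (-0.21) and the kinases MAP4K4 (0.11) and STK25 (0.13) came next by p and were not called. WWC1 had at most 3 counts in a library and was not tested. Of 5 tested angiomotin and LIM-adaptor genes 0 rose and 1, AJUBA, fell, beside the same shares of 9.71% and 8.04%. The AJUBA relatives LIMD1 (0.04) and WTIP (0.14) and the angiomotin AMOTL1 (0.19) were not called, and AMOT had 2 counts in 1 library and 0 in the other 5.

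Of the targets ANKRD1, AXL, CRIM1 and FJX1, the last had the widest change. FJX1 (ENSG00000179431) encodes a secreted protein related to the fly four-jointed kinase, which acts on Fat and Dachsous cadherins. It stood at 15.7, 9.71 and 8.04 CPM with TGF-β and at 28.2, 21.8 and 18.5 CPM with CXCL10, on 107 to 401 counts per library. All CXCL10 libraries lay above all TGF-β libraries, as for 11.1% of tested genes, and replicate 1 was the highest of each group. The change was 1.03 (SE 0.24, 95% interval 0.50 to 1.57, adjusted p = 0.161) unpaired and 1.06 (SE 0.12, adjusted p = 5.81e-05) paired. The 3 pairs differed by 0.84, 1.16 and 1.19. DESeq2 without pairing gave an adjusted p of 0.00307, where it called 1.44% of all genes higher. The authors' deposited table gave a log2 ratio of 0.995 with an adjusted p of 0.00912, and 0.714% of its genes with a count were higher at that threshold.

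The cadherins of the FJX1 axis were not called. FAT1, at 313 ± 8.35 and 336 ± 16.3 CPM, had a paired change of 0.10 (adjusted p = 0.192), FAT4 one of -0.20 and DCHS1, at 1.72 ± 0.99 and 2.11 ± 0.42 CPM, one of 0.37 (SE 0.37). FAT2 had at most 7 counts in a library, FAT3 at most 1, and DCHS2 had 0 in all 6. By counting error alone, a count of 0 leaves room for 0.192 to 0.234 CPM, depending on the library. That range is over the library total, without TMM scaling.

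ANKRD1 (ENSG00000148677) encodes a nuclear and sarcomeric ankyrin-repeat protein and is often used as a readout of YAP and TAZ. It stood at 9.65, 3.18 and 5.49 CPM with TGF-β and at 8.93, 11.5 and 9.22 CPM with CXCL10. TGF-β replicate 1 lay above CXCL10 replicates 1 and 3, and the other TGF-β libraries lay below every CXCL10 library. The 3 pairs differed by -0.11, 1.81 and 0.73, so that replicate 1 went the other way. The change was 0.70 (SE 0.33, adjusted p = 0.261) unpaired and 0.77 (SE 0.27, adjusted p = 0.0696) paired, on 51 to 145 counts per library. It depended on single libraries: without TGF-β replicate 1 it was 1.20 (adjusted p = 0.00727) and without TGF-β replicate 2 it was 0.38 (adjusted p = 0.600). Paired, it was 1.28 (adjusted p = 3.94e-06) without both libraries of replicate 1 and 0.29 (adjusted p = 0.490) without both of replicate 2. Of its muscle relatives, ANKRD2 had 0 counts in all libraries and ANKRD23 a mean of 8 counts.

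AXL (ENSG00000167601), a receptor tyrosine kinase of the TAM family, stood at 294, 275 and 292 CPM with TGF-β and at 295, 290 and 305 CPM with CXCL10. CXCL10 replicates 1 and 3 lay just above the TGF-β range and replicate 2 lay inside it. The change was 0.05 (SE 0.06, adjusted p = 0.656, 95% interval -0.08 to 0.18). Its ligand GAS6 was measured at 311 ± 10.6 and 320 ± 21.7 CPM, with a change of 0.04. The related receptor TYRO3 (-0.13 paired) and the ligand PROS1 (-0.12 paired) were not called, and MERTK had at most 7 counts in a library. Thus 0 of 4 tested TAM genes were called in either fit, beside 17.7% of all genes in the paired one.

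CRIM1 (ENSG00000150938), a membrane protein that binds BMP ligands, was the most abundant of the 10 genes. It stood at 912, 940 and 966 CPM with TGF-β and at 873, 951 and 934 CPM with CXCL10. The groups overlapped, and CXCL10 replicate 1 was the lowest library. The change was -0.03 (SE 0.06, adjusted p = 0.790, 95% interval -0.16 to 0.10), and it turned to 0.01 without CXCL10 replicate 1.

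**Figure D3:**
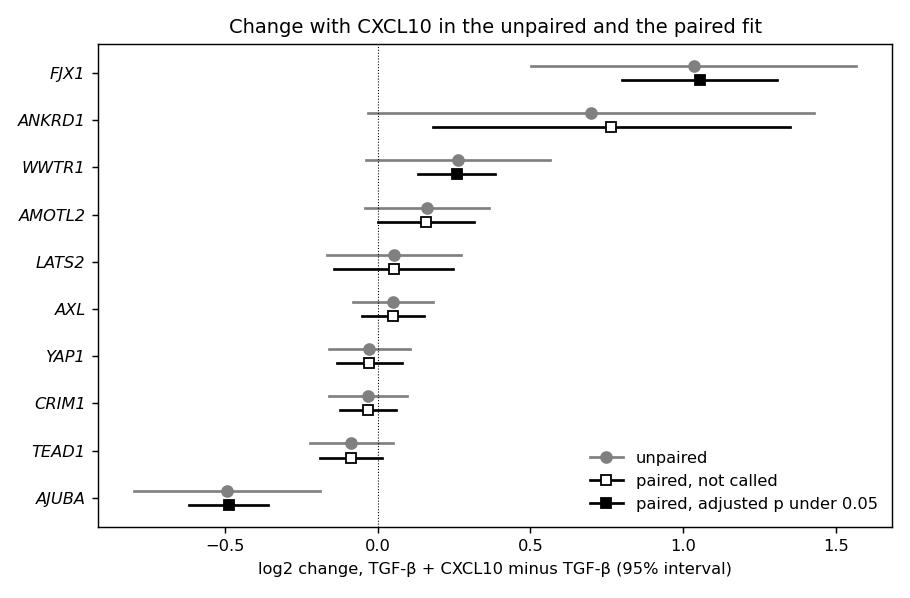
Log2 change with CXCL10 and its 95% interval for each gene, from edgeR without pairing (grey) and paired by replicate number (black, filled where the adjusted p was under 0.05). FJX1 (1.06), WWTR1 (0.26) and AJUBA (-0.49) are filled, and the interval of ANKRD1 is the widest.

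By FPKM, CRIM1 (149.6 to 173.5 over the 6 libraries) came first and AXL (72.3 to 75.9) next, each apart from its neighbours. YAP1 (37.5 to 41.0) and TEAD1 (34.2 to 47.1) overlapped. AJUBA (15.8 to 31.3), AMOTL2 (17.8 to 22.5) and WWTR1 (15.8 to 28.5) overlapped in a further group. FJX1 (3.40 to 11.5), LATS2 (4.82 to 5.79) and ANKRD1 (1.83 to 6.31) overlapped in the lowest.

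For the 4 members that differed most, TGF-β replicate 1 lay apart from the others of its group, on the side of the CXCL10 libraries. For FJX1 and AJUBA it lay between both, and for WWTR1 and ANKRD1 it lay within the CXCL10 range. The log2 gap of TGF-β replicate 1 to the mean of TGF-β replicates 2 and 3 was 0.82 for FJX1, 1.18 for ANKRD1, 0.34 for WWTR1 and -0.44 for AJUBA. Paired changes with CXCL10 were 1.06, 0.77, 0.26 and -0.49 in the same order. In these 4 genes gap and change thus had the same sign, although the label of that library names TGF-β and no CXCL10. Over the 10 genes the signs were alike in 9, the exception being LATS2, and over all tested genes in 72.0%. Gap and change are computed from the same TGF-β libraries, and what this adds to or takes from their shared sign was not tested. Within the CXCL10 group, replicate 1 differed from replicates 2 and 3 by 0.49 for FJX1, 0.43 for WWTR1 and -0.35 for AJUBA, and by -0.20 for ANKRD1. Leaving TGF-β replicate 1 out of the unpaired test, 4 of the 10 genes were called, FJX1, WWTR1 and ANKRD1 higher and AJUBA lower, beside 10.7% of genes higher and 8.61% lower.

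**Figure D4:**
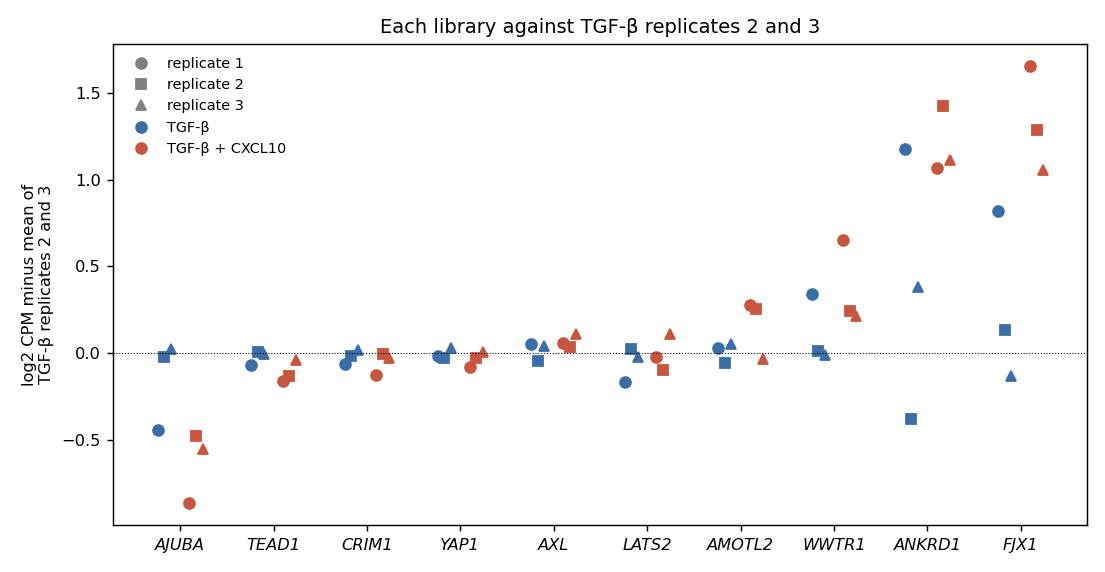
Log2 CPM of each library minus the mean of TGF-β replicates 2 and 3, for the 10 genes in order of their paired change, blue for TGF-β and red for TGF-β + CXCL10. The blue circle, TGF-β replicate 1, lies at -0.44 for AJUBA, 0.34 for WWTR1, 1.18 for ANKRD1 and 0.82 for FJX1, on the side of the red CXCL10 points.

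A list of 22 YAP/TAZ targets, which holds 6 of the 10 genes, moved in both directions. In the paired fit 6 rose, 3 fell and 13 were not called, beside 9.71% higher and 8.04% lower over all genes. The median was 0.05, and 0 passed unpaired. NT5E, the ecto-enzyme CD73 that makes adenosine, rose from 259 ± 153 to 541 ± 130 CPM (1.18, SE 0.11, adjusted p = 1.80e-05). The coagulation initiator F3 rose by 0.45 (SE 0.05), and CCN2, a matricellular protein, by 0.82 (SE 0.09). DESeq2 without pairing gave an adjusted p of 0.250 for NT5E, 0.210 for CCN2 and 0.0168 for F3. The adjusted p in the authors' deposited table was 0.361, 0.306 and 0.0222 in the same order. The others that rose were FJX1, CCN1 (0.47) and the kinase NUAK2 (0.54). The genes that fell were IGFBP3 (-0.44), which binds insulin-like growth factors, the stress-response gene GADD45A (-0.43) and CCDC80 (-0.36); these 3, CCN1 and NUAK2 were named after their values were seen. TGF-β replicate 1 held 436 CPM of NT5E, against 173 and 168 CPM in the others of its group and 466 to 691 CPM with CXCL10.

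Of 159 rows that the deposited table annotates to the KEGG Hippo pathway, 116 were tested, and 5 of the 10 genes are among them: YAP1, WWTR1, TEAD1, LATS2 and AJUBA. In the paired fit 26 of these genes rose (22.4%, beside 9.71% of all genes) and 11 fell (9.48%, beside 8.04%), with a median change of 0.03. The annotation was chosen after the data were seen and also covers TGF-β, BMP and Wnt genes. Its lowest p values were those of TGFBR2 (0.72), BMP6 (0.82) and the Wnt receptor FZD8 (0.86).

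**Figure D5:**
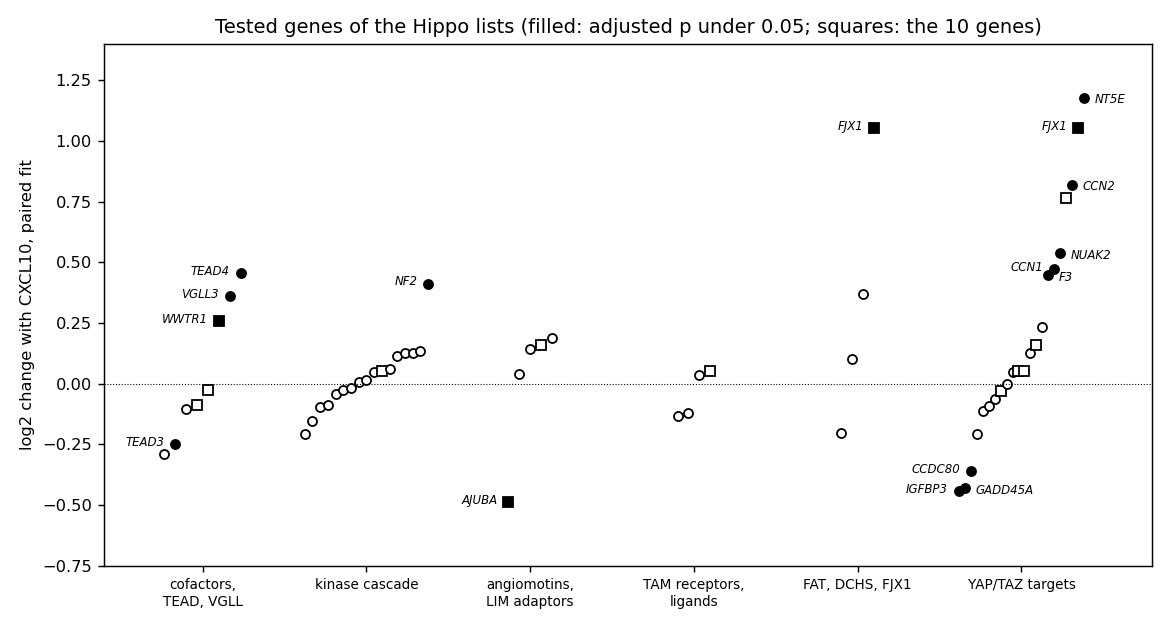
Paired log2 change with CXCL10 of each tested gene of the Hippo lists, ordered within its list, with squares for the 10 genes described here and filled symbols for an adjusted p under 0.05. Filled symbols number 3 up and 1 down of 8 cofactors and TEADs, 1 up of 17 in the kinase cascade, and 6 up and 3 down of 22 YAP/TAZ targets. AJUBA is down among 5 angiomotins and LIM adaptors, FJX1 is up among 4 genes of its FAT and DCHS list, and 0 of 4 TAM genes are filled. Over all tested genes 9.71% rose and 8.04% fell.

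Counts and FPKM gave different sizes of change for some genes. The length that the FPKM implies (counts over FPKM and library total) hardly moved between libraries for FJX1 (2405.8 to 2406.1 bases), ANKRD1 (1789.9 to 1790.1 bases) and LATS2 (5545.5 to 5546.5 bases). For TEAD1 it ran from 6648 bases in TGF-β replicate 2 to 8425 in TGF-β replicate 1, a ratio of 1.27, and for WWTR1 from 3634 in CXCL10 replicate 1 to 4283 in TGF-β replicate 1, a ratio of 1.18. The median ratio over tested genes was 1.10. In the authors' deposited table the log2 ratio was -0.17 for TEAD1 and 0.36 for WWTR1, beside -0.09 and 0.26 from the counts, and 0.05 for AMOTL2, beside 0.16. These count changes were TMM-scaled. Scaled by library totals, the unpaired count changes were -0.13 for TEAD1, 0.22 for WWTR1 and 0.12 for AMOTL2. For LATS2, whose implied length hardly moved, the change was 0.05 with TMM, 0.008 with library totals and 0.008 in the deposited table. The parts that length and scaling have in these differences were not tested.

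ANKRD1 varied most over the 6 libraries, with a log2 range of 1.81. Among 9704 tested genes whose mean over the 6 libraries reached 5 CPM, those nearest to its centred profile were COL13A1, a transmembrane collagen (root mean square difference 0.21, log2), the hyaluronan-degrading CEMIP (0.24) and the zinc finger gene ZNF175 (0.24). COL13A1 stood at 10.4, 3.80 and 4.36 CPM with TGF-β and at 11.2, 11.2 and 9.29 CPM with CXCL10. It was chosen for its likeness to ANKRD1 over these libraries, so its high level in TGF-β replicate 1 follows from that choice.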

How the data were processed

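Per the file headers, the deposited table holds raw counts and FPKM for each library. It also holds, from the authors, a mean FPKM for each group, the log2 ratio of both means, and a p-value with its adjusted value. The aligner, counting tool, strand setting and the authors' test are not stated in the labels or headers used here. Per the labels' protocols, the library kit was SMARTer mRNA-seq. Mouse builds are named in the submitters' processing notes, which conflicts with the human gene rows, so no coordinates or sequences were used.

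The count test was edgeR's quasi-likelihood test (edgeR 4.0.16, R 4.3.3; TMM, filterByExpr with a minimum count of 10 and total of 15, Benjamini-Hochberg threshold of 0.05 over all genes tested). It was also run on simulated counts, which held no difference between replicates like that of replicate 1 here. Scaled CPM are counts over TMM-scaled library size; log2 CPM use a prior count of 2. Alternatives were RLE or total scaling, no filter, DESeq2 1.42.0, limma 3.58.1 (voom, or trend on log2(FPKM + 1) and log2(FPKM + 0.1)), the replicate number as a block, and libraries left out. The unpaired fit is the principal one. Each library's deviation from its group mean was correlated across genes with that of its namesake, giving 0.33, 0.12 and 0.16, each over 0.1, so paired values are given where they change a call. The pairing comes from these data, not the labels, and rests mainly on replicate 1. TGF-β replicate 2 with CXCL10 replicate 3 gave 0.0803, and TGF-β replicate 3 with CXCL10 replicate 2 gave 0.0825. These lie close to the namesake values of 0.12 and 0.16, so replicates 2 and 3 were hardly told apart by number.

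Members and lists were chosen with earlier results of these data known. From lists of up to 8 genes every gene is named, from longer ones the 4 with the lowest paired p. The nearest profiles are named for the member with the widest range.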

Additional observations from a re-analysis of the deposited data

How the results depend on the processing

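Without pairing, 0 genes and 0 members were called by edgeR with TMM, RLE or total scaling or without the filter, and by limma-voom and both limma-trend fits; DESeq2 called 335 genes, 2 of them members. With the replicate block the calls were 2124 genes and 3 members, with RLE scaling 2184 and 3, with library totals 2236 and 3, with DESeq2 1138 and 3, with limma-trend on log2(FPKM + 1) 689 and 2, and without the filter 2436 and 4. Leaving out libraries gave 0 to 2846 genes and 0 to 4 members: unpaired, 2348 genes and 4 members without TGF-β replicate 1 and 0 without any other library; paired, 2846 genes without replicate 1, 1241 without replicate 2 and 904 without replicate 3, with 3 to 4 members. FJX1 and AJUBA were called in 9 of 9 fits with the block and WWTR1 in 8 of 9, the exception being limma-trend (adjusted p = 0.0759). ANKRD1 was called in the block fit with no filter (0.00214) and in both fits without TGF-β replicate 1. The block with the principal settings changed no other member's call. Signs turned only for LATS2, to -0.00052 without TGF-β replicate 1 and -0.0049 without CXCL10 replicate 3 (at most 0.099 without another single library), and for CRIM1, to 0.0064 without CXCL10 replicate 1 (at lowest -0.055 without another). The cause of these differences was not tested. Depth limits ANKRD1 most, with 51 to 145 counts per library.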
